A study of Mus musculus with 2 samples.

Results

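The TRIM family of ubiquitin ligases was followed in stimulated mouse macrophages. Members were the protein-coding genes of the annotation whose symbol is Trim followed by a number and at most 1 letter, which gave 67 of the 22028 protein-coding genes and of the 55536 genes in all. Whole-cell polyadenylated RNA had been sequenced from C57BL/6J bone marrow-derived macrophages, a primary cell grown in culture from marrow, 300 min after a stimulus at 100 ng/mL. The labels name that stimulus in different ways, as Lipid A and as lipoprotein A, and it is left unnamed below. The series has 1 group of 2 libraries, biological replicates 1 and 2, which have separate biosample records and share a donor record. No sex, age, genotype beyond the strain or unstimulated sample was given, so every level describes stimulated cells and no value is a response to the stimulus. Nothing else in the labels says that the cultures were separate, and the spread between the libraries may be technical. Expected counts over annotated genes summed to 38028201 in replicate 1 and 63649100 in replicate 2.

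TRIM proteins carry a RING finger that recruits a ubiquitin-conjugating enzyme, B-box zinc fingers and a coiled coil through which they pair. The domain behind the coiled coil, most often a PRY-SPRY fold, chooses the substrate or the pathogen component that is bound. Many family members are interferon-stimulated genes, restrict viruses or tune signalling from Toll-like receptors and from cytosolic nucleic acid sensors, while others act on chromatin, in muscle or in neurons. In mice the Trim5 and Trim34 relatives and the rodent Trim30 genes form 1 cluster on chromosome 7. Interferon-stimulated genes carry the interferon-stimulated response element (ISRE), bound by interferon regulatory factors.

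Promoters of most abundant members shared a short sequence. RefSeq promoters (GRCm38.p6, from 250 bases before to 50 bases after the start) were in the table for 52 of the 67 members. The ISRE core, GAAANNGAAA or TTTCNNTTTC on the other strand, was found in 9 of these 52 genes (17.3%), against 3.99% of all 27025 genes with a promoter in the table. The genes were Trim30a, Trim30d, Trim34a, Trim12a, Trim12c, Trim5, Trim21, Trim26 and Trim2. The windows below show matches in capitals, with 10 bases before the first match and 20 from its start on, on the strand of the gene. They are printed because Trim30a and Trim30d share all 30 bases at the starts that RefSeq and GENCODE have in common, and because Trim30c, whose promoter had no full match, holds nearly the same window.
Trim30a: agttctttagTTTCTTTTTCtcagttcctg
Trim30d: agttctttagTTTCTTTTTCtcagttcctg
Trim30c: agttctgtggTTCCTTTTTCtcagttccac
The window of Trim30a lay at chr7:104465210-104465239 on the minus strand, and its match began 36 bases before the RefSeq start. Another RefSeq start of Trim30a, 19068 bases inside the gene, also has the match, 2 bases after that start, in a window that is not identical. That of Trim30d lay at chr7:104507871-104507900 on the minus strand, 41 bases before the start. The Trim30c window, at chr7:104400896-104400925 on the minus strand, began its closest stretch (capitals) 137 bases before the RefSeq start, which is 59 bases from the GENCODE start. Counted from 1 at the 5′ end of the window, Trim30c differed from Trim30a by T7G, A9G, T13C, T29A and G30C. Only T13C fell inside the 10-base match.

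Longer stretches upstream of Trim30a and Trim30d place these matches in context, with the ISRE core in capitals.
Trim30a: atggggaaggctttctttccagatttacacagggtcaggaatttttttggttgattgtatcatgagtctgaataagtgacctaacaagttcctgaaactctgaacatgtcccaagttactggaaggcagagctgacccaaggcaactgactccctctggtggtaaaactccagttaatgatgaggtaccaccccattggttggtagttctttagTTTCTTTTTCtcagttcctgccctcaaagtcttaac
Trim30d: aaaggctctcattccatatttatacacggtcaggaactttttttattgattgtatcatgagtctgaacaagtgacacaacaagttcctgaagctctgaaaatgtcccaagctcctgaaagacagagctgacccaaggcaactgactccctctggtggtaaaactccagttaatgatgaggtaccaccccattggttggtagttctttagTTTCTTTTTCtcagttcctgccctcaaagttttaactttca
They are the 250 bases before each start, at chr7:104465194-104465443 for Trim30a and at chr7:104507850-104508099 for Trim30d, both on the minus strand.

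The neighbours of the Trim30 genes carried other forms of the core. Trim12a, Trim12c and Trim5 shared the site and the bases that lead up to it, and Trim34a had its own. Trim34b, the near-copy of Trim34a, had no full match, and its closest stretch, with 1 mismatch, is shown in capitals.
Trim34a: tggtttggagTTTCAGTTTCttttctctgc
Trim34b: ttacctgtgtTTTCTGTTCCttctgccttc
Trim12a: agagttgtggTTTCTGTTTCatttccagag
Trim12c: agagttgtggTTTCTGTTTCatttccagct
Trim5: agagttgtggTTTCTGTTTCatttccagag
Outside the cluster, matches were held by Trim21, elsewhere on chromosome 7, and by Trim26 on chromosome 17. Each has 2 overlapping matches, shown as 1 run of capitals.
Trim21: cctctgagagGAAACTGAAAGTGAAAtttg
Trim26: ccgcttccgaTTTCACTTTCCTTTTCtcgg
The Trim34a window lay at chr7:104244457-104244486 on the plus strand, with its match 10 bases after the start, and the Trim34b window at chr7:104329233-104329262 on the plus strand. On the minus strand lay the windows of Trim12a (chr7:104315466-104315495), Trim12c (chr7:104353359-104353388), Trim5 (chr7:104288136-104288165) and Trim21 (chr7:102565450-102565479). The window of Trim26 lay at chr17:36836976-36837005 on the plus strand, with its first match 160 bases before the start. A match describes letters in a window and does not show that a factor binds there.

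Read beside the levels, the core was frequent among abundant members and rare among the rest. It was found in 7 of the 10 members with a promoter in the table and a mean of 20 TPM or more (TPM, a share of the library's transcripts scaled to transcript length), against 189 of 3234 protein-coding genes at that level (5.84%). Below that level it was found in 2 of 42 members (4.76%), against 3.58% of protein-coding genes. The level of 20 TPM was chosen after the members' levels were seen, and members of the chromosome 7 cluster share sequence, so the matches are not independent of each other. The 9 members with the core had a median of 111 TPM in replicate 1 and 95.5 in replicate 2, and 8 of them reached 1 TPM in both libraries. The 43 without it had medians of 0.12 and 0.16 TPM, and 14 of them reached 1 TPM in both. Trim2, matched at a RefSeq start 94039 bases from its GENCODE start, was the member with the core and a low level. Trim30c, Trim30b and Trim28 were the members without it at 20 TPM, and the RefSeq start of Trim30b lay 11238 bases from its GENCODE start. Trim14 and Trim35, also above that level, had no promoter in the table and could not be searched. A single mismatch is no rarity, as 33.6% of all promoters and 28 of the 66 promoters of TRIM members came within 1 mismatch of the core away from the window edges.

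**Figure D1:**
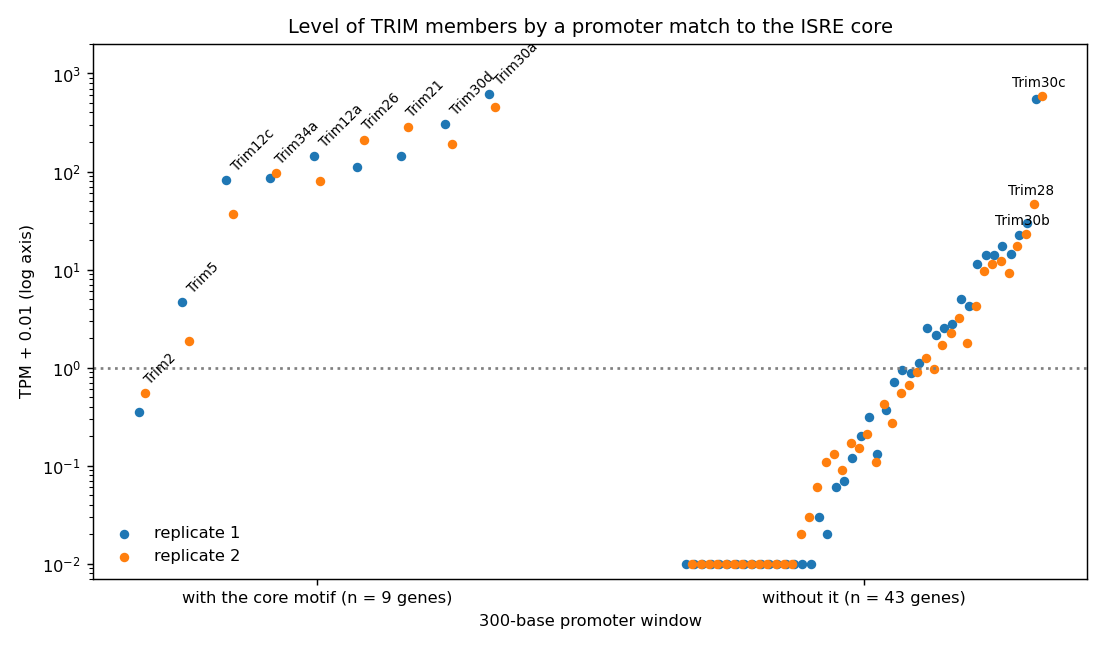
Level of the 52 TRIM members with a promoter in the RefSeq table, as TPM + 0.01 on a log axis, with the 9 genes that hold the ISRE core on the left and the 43 genes that do not on the right. Each gene has a point for replicate 1 (blue) and one for replicate 2 (orange), the dotted line marks 1 TPM, and 8 of the 9 genes on the left lie above it in both libraries, against 14 of the 43 on the right.

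The family as a whole was detected about as often as other genes, and its levels were very uneven. Of the 67 members 29 reached 1 TPM in both libraries (43.3%), against 42.4% of all protein-coding genes. At 10 TPM the count was 16 (23.9%, against 23.5%), and at 100 TPM it was 6 (8.96%, against 5.08%). The median over all 67 members was 0.70 TPM in replicate 1 and 0.54 in replicate 2, a mean of 0.62 ± 0.113 TPM (SD, n = 2), against 0.31 and 0.21 TPM over all protein-coding genes. Over the members at 1 TPM it was 14.2 and 12.1 TPM, against 15.1 and 14.4 TPM over protein-coding genes at that level. The summed TPM of the family was 2386 in replicate 1 and 2375 in replicate 2, which is 0.239% and 0.237% of all TPM. Of the other members, 2 reached 1 TPM in 1 library alone and 36 in neither. Among those 36, 15 had no counts in either library.

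**Figure D2:**
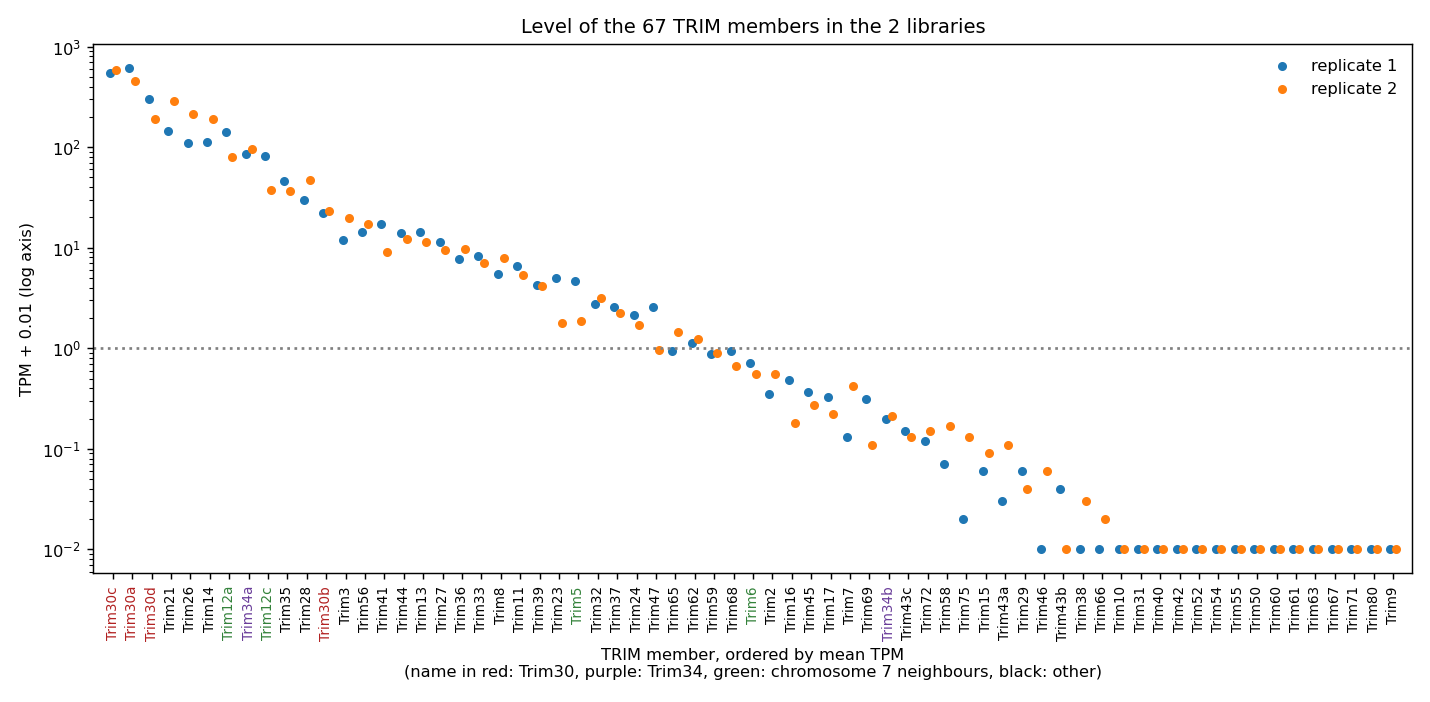
Level of each of the 67 TRIM members, as TPM + 0.01 on a log axis, ordered by mean TPM, in blue for replicate 1 and orange for replicate 2. Names are coloured by position in the chromosome 7 cluster (red Trim30, purple Trim34, green the other neighbours), the dotted line marks 1 TPM, and 15 members lie at 0 counts in both libraries at the right.

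The Trim30 and Trim34 genes held most of the family's transcripts. Their 6 genes took 66.1% of TRIM TPM in replicate 1 and 57.0% in replicate 2 (61.6% ± 6.43; SD, n = 2), and 69.1% and 63.7% of TRIM counts. Their median was 195 TPM in replicate 1 and 144 in replicate 2, against 0.36 and 0.41 TPM over the 61 other members. On the log2(TPM + 1) scale the medians differed by 6.91 in replicate 1 and 6.60 in replicate 2, a mean of 6.75 ± 0.22 (SD, n = 2). Of the 6 genes 5 reached 1 TPM in both libraries, as did 24 of the 61 others. Many of those others lie near 0, and between members at 1 TPM alone the difference was 4.39. Within the clusters the Trim30 genes gave 62.5% and 53.0% of TRIM TPM, and the Trim34 genes 3.62% and 4.03%.

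Trim30a (ENSMUSG00000030921.17, chr7:104409025-104465193), which in mouse macrophages is known to restrain Toll-like receptor signalling through loss of TAB2 and TAB3, had 612 TPM in replicate 1 and 456 in replicate 2, from 53063 and 65980 counts. Trim30c (ENSMUSG00000078616.2, chr7:104382065-104400837), a close relative, had 552 and 588 TPM from 19856 and 35542 counts. The order of these genes differed between the libraries, and their means of 534 ± 110 TPM for Trim30a and 570 ± 25.4 TPM for Trim30c (SD, n = 2) lay closer than the SD of Trim30a. On counts alone Trim30a was first in both libraries. The only annotated transcript of Trim30c is 1716 bases long, and Trim30a-201, which carried 99.0% and 99.7% of the TPM of Trim30a, is 3771 bases long. Among protein-coding genes both stood at percentile 98.5 or higher in each library.

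Trim30d had 305 TPM in replicate 1 and 192 in replicate 2, from 19861 and 19541 counts, next below Trim30c and Trim30a by mean level. Trim30b, the lowest of the group, had 22.3 and 23.0 TPM from 1674 and 2937 counts. Its mean, 22.6 ± 0.467 TPM, lay below every value of the other Trim30 genes. The annotated pseudogene Trim30e-ps1 had 0 counts in both libraries.

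The paralogs are alike in coding sequence, which bears on how reads could be assigned. Of aligned coding bases Trim30a matched Trim30d at 90.3%, Trim30c at 83.5% and the shorter Trim30b at 88.7%. Of the 31-base words in the transcripts of Trim30a, 11.7% also occurred in another gene, and the values were 11.9% for Trim30d, 5.69% for Trim30c and 2.60% for Trim30b. The deposited posterior SD of the count from read assignment was 12.9 and 12.2 reads for Trim30a and likewise for Trim30d, and 0 for Trim30c and Trim30b. Assignment error as the authors' tables give it was thus small beside the counts. In the second quantification, the authors' other estimate, Trim30a had 668 and 447 TPM, Trim30c 640 and 572 TPM, and Trim30d 321 and 199 TPM. Trim30b alone of the 4 changed its level by over 50% there, to 39.5 TPM in replicate 1, with 27.2 TPM in replicate 2.

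The pair of Trim34 genes differed far more than the Trim30 genes. Trim34a had 86.2 TPM in replicate 1 and 95.5 in replicate 2, from 4924 and 9107 counts. Trim34b had 0.19 and 0.20 TPM, from 6.66 and 13.3 expected counts, and 0.398 and 0.305 TPM in the second quantification. Their coding sequences match at 98.8% of 1455 bases, and 48.7% of the 31-base words of Trim34a and 69.0% of those of Trim34b occur in the other gene. The level of Trim34b in particular thus rests on the smaller part of its words that Trim34a lacks. The posterior SD was 21.8 and 4.59 reads for Trim34a and 0.96 and 1.35 reads for Trim34b. An antisense transcript inside Trim34a, Gm47248, was listed at 15.6 TPM from 130 counts in replicate 1 and at 0 in replicate 2. Whether counting used strand is not given in the sources used here, so reads from overlapping genes on opposite strands may be shared.

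The other genes of the cluster covered a wide range of levels. The locus spans chr7:104218793-104507849 (mm10, GENCODE M21), 289 kb with 18 annotated genes, of which 10 are members. From its start the members run Trim6, Trim34a, Trim5, Trim12a, Trim34b, Trim12c, Trim30b, Trim30c, Trim30a and Trim30d, with Trim6, Trim34a and Trim34b on the plus strand and the others on the minus strand. Together the 10 members held 75.7% of TRIM TPM in replicate 1 and 62.0% in replicate 2. Of the 8 other genes in the locus, 1 reached 1 TPM in both libraries, the pseudogene Gm16464 within Trim30d, at 11.8 and 15.3 TPM.

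Trim12a and Trim12c are rodent relatives of Trim5, which in primates restricts retroviral capsids. Trim12a had 143 TPM in replicate 1 and 79.1 in replicate 2. Trim12c had 81.7 and 37.2 TPM. Mouse Trim5 itself had 4.62 and 1.86 TPM from 391 and 261 counts, although its coding sequence matches that of Trim12c at 96.6%. All 3 genes were higher in replicate 1. Of the 31-base words of Trim5 52.9% occur in another gene, as do 47.7% of those of Trim12c and 15.7% of those of Trim12a. Trim6, which makes unanchored ubiquitin chains in interferon signalling, had 0.70 and 0.54 TPM from 62 and 47 counts.

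**Figure D3:**
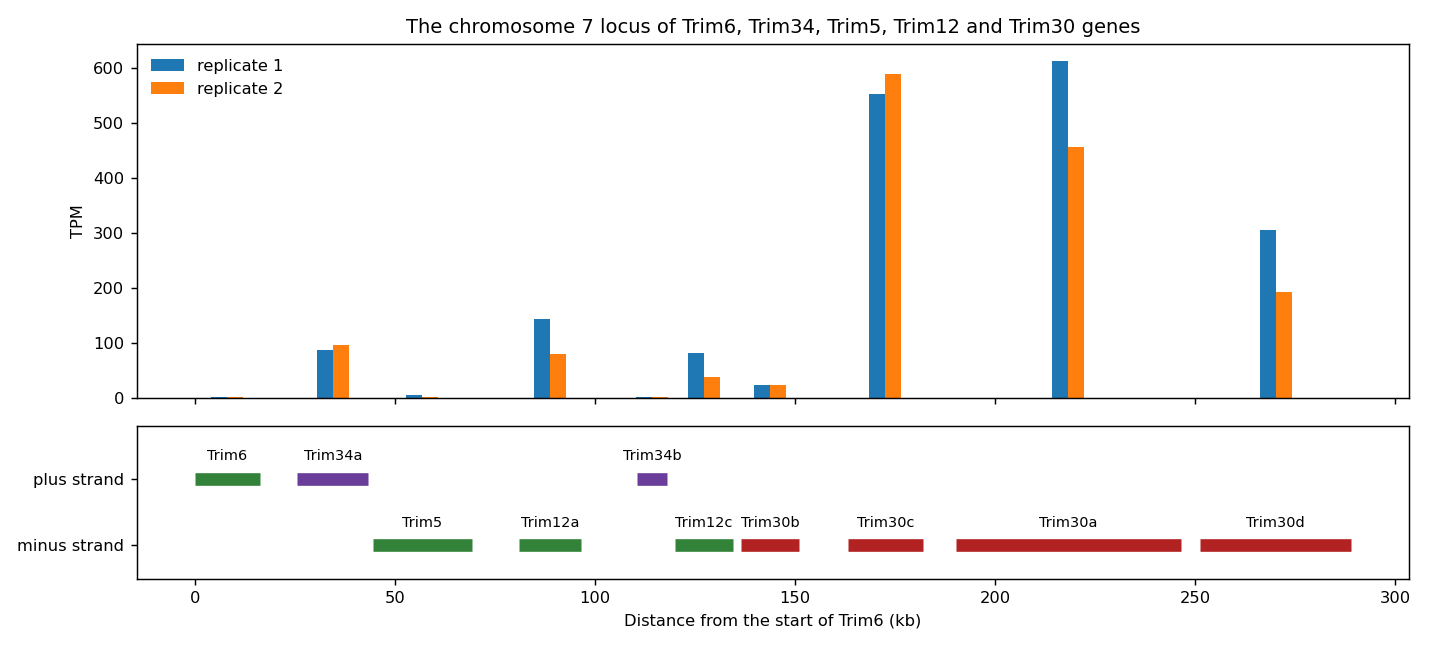
Level in TPM of the 10 TRIM members of the chromosome 7 cluster (top; blue bars replicate 1, orange bars replicate 2) above a map of the genes by strand (bottom), both against distance from the start of Trim6 in kb. Trim30c, Trim30a and Trim30d stand at 192 to 612 TPM, while Trim6 and Trim34b stay under 1 TPM.

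Among members known from innate immune signalling elsewhere in the genome, 8 of 11 reached 1 TPM in both libraries, and 3 reached 100 TPM. Over all protein-coding genes the shares were 42.4% and 5.08%. Trim21, a cytosolic antibody receptor, had 144 TPM in replicate 1 and 288 in replicate 2. Trim26, a ligase in antiviral signalling, had 111 and 212 TPM. Trim14, an adaptor without a RING finger that acts in nucleic acid sensing, had 112 and 189 TPM. All 3 were higher in replicate 2. Their means were 216 ± 102, 162 ± 71.5 and 150 ± 54.3 TPM (SD, n = 2), and these ranges overlapped each other. Trim30d at 248 ± 79.8 TPM and Trim12a at 111 ± 44.9 TPM overlapped them as well. Trim14 lies opposite the protein-coding gene Nans, which overlaps it by 9852 bases, and Trim28 likewise overlaps Zbtb45 by 6137 bases.

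The remaining innate members were lower. Trim56, an antiviral ligase, had 14.4 TPM in replicate 1 and 17.2 in replicate 2. Trim13, a ligase of the endoplasmic reticulum, had 14.2 and 11.5 TPM, though 28.7% of its 31-base words occur in Gm9359. Trim27, which acts with the retromer and in interferon pathways, had 11.5 and 9.57 TPM. Scaled counts of these 3 lay within 1.5-fold of each other between the libraries. Trim8, a regulator of TNF and JAK-STAT signalling, had 5.42 and 7.89 TPM, and Trim11 had 6.51 and 5.34 TPM. Trim65, a ligase of the RNA sensor MDA5, stood at the detection level with 0.94 and 1.43 TPM. Trim38, known to regulate Toll-like receptor and TNF signalling, had 0 counts in replicate 1 and 1 count in replicate 2, and 3 counts in replicate 1 would be 0.0877 TPM. Trim31, a ligase of MAVS and of NLRP3, had 0 counts in both, so its level could be as high as 0.0606 TPM in replicate 1 and 0.0363 TPM in replicate 2. Such limits are the TPM of 3 counts and cover counting error only. The 11 genes summed to 419 TPM in replicate 1 and 741 in replicate 2, which is 17.6% and 31.2% of TRIM TPM.

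Of 4 chromatin-bound members 3 reached 1 TPM in both libraries, against 42.4% of all protein-coding genes. Trim28, known as KAP1, the corepressor of KRAB zinc finger proteins, had 29.8 TPM in replicate 1 and 46.8 in replicate 2. Trim33, a cofactor in TGF beta signalling, had 8.30 and 7.01 TPM, and Trim24, a bromodomain cofactor, had 2.14 and 1.70 TPM. Trim66 had 0 and 4 counts. The order of the 3 was the same in both libraries.

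Members with NHL repeats were mixed, with 2 of 4 at 1 TPM in both libraries, against 42.4% of all protein-coding genes. Trim3 had 11.8 TPM in replicate 1 and 19.9 in replicate 2, and Trim32 had 2.75 and 3.16 TPM. Trim2 was at 0.34 and 0.54 TPM from 34 and 18 counts. Trim71, an RNA-binding member of embryonic cells, had no counts. Another 4 members were grouped here as COS-box proteins known mainly from neurons and microtubules. Of this group Trim36 reached 1 TPM with 7.80 and 9.70 TPM, Trim9 and Trim67 had no counts, and Trim46 had 0 and 6 counts. None of the 4 muscle members reached 1 TPM in either library. Trim54, Trim55 and Trim63, the MURF ligases of striated muscle, had 0 counts in both libraries, and Trim72, which acts in membrane repair, had 0.11 and 0.14 TPM. The 4 striated muscle markers Acta1, Ckm, Myh4 and Myh7 likewise held at most 3 counts each.

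Of the other 30 members 7 reached 1 TPM in both libraries, against 42.4% of all protein-coding genes. Trim35 was the highest of them at 45.8 TPM in replicate 1 and 36.6 in replicate 2. Trim41 had 17.3 and 9.13 TPM, but 16.8 and 14.7 TPM in the second quantification, and its scaled counts were 1.19-fold apart. In replicate 1 its 471-base transcript Trim41-203 took 43.3% of its TPM from 37.5 counts. Trim44 had 14.1 and 12.1 TPM. Trim39, Trim23, Trim37 and Trim62 lay between 1.11 and 4.95 TPM in both libraries. Trim47 reached 1 TPM in replicate 1 alone, with 2.54 and 0.95 TPM. The remainder stayed below that level in both libraries, with Trim68 at 0.94 and 0.66 TPM and Trim59 at 0.86 and 0.89 TPM nearest to it. In the second quantification Trim52, at 0 counts in the first, was listed at 2.08 and 1.55 TPM, so its detection depended on the quantification. All of that TPM lay on the processed transcript Trim52-202, and the coding Trim52-201 had 0 TPM in both quantifications. For 27 of the 29 members at 1 TPM the second quantification lay within 50% of the first in both libraries, and the exceptions were Trim30b and Trim41.

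The libraries were next compared with each other. Log2 ratios, replicate 1 over replicate 2, were taken from expected counts scaled by TMM, a scaling that assumes most genes are alike, and a member was called at 1.5-fold. There is 1 library on each side, so the intervals cover counting error only and no test of a condition was possible. Of the 38 members with enough counts 15 were called, 9 higher in replicate 1 and 6 higher in replicate 2. Of all 12226 genes with enough counts 35.8% were called, 19.1% as higher in replicate 1 and 16.7% as higher in replicate 2. The members' share, 15 of 38, is thus near that of all genes, and the estimated biological coefficient of variation over all genes was 0.319.

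In the chromosome 7 cluster, where Trim34b had too few counts to be compared, 5 members were called, all as higher in replicate 1. Trim5 had a log2 ratio of 1.14 (95% interval 0.92 to 1.38), Trim12c of 0.97 (0.92 to 1.02) and Trim12a of 0.61 (0.55 to 0.68). Trim6 had 0.93 (0.39 to 1.54) from few counts, but 0.36 in the second quantification and 0.14 on the TPM scale, both within 1.5-fold. Trim30d, at 0.59 (0.56 to 0.61), was called at the threshold itself. Trim30a, at 0.25, Trim30c, at -0.28, Trim30b, at -0.25, and Trim34a, at -0.33, lay within 1.5-fold. The intervals of Trim30d and Trim30a lay above 0 and those of Trim30c and Trim30b below it, and Trim30a turned to -0.20 when a trend in GC content and length was removed.

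The abundant innate members outside the cluster lay on the other side. Trim26 had a log2 ratio of -0.96 (-1.005 to -0.92), Trim14 of -0.69 (-0.76 to -0.62) and Trim21 of -0.66 (-0.70 to -0.63). Trim65 (-0.72), Trim8 (-0.71) and Trim3 (-0.66) were also higher in replicate 2. The remaining calls were higher in replicate 1, namely Trim23, a member with an ARF-type GTPase domain, at 1.32 (1.09 to 1.57), Trim47 at 0.76, Trim16 at 1.08 and Trim2 at 1.37. Trim2 had 34 counts in replicate 1 and 18 in replicate 2, and its TPM of 0.34 and 0.54 ran the other way. Trim35 (0.15), Trim28 (-0.29) and Trim56 (0.24) were within 1.5-fold.

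Base composition moved with these ratios. Over all genes kept, the median log2 ratio was 0.61 in the decile of lowest GC content (30.97% to 40.9%) and -0.15 in the highest (57.3% to 78.3%). The lowest decile holds 6 members, Trim23 (37.4% GC), Trim59 (37.6%), Trim12a (39.1%), Trim30d (39.5%), Trim30a (40.8%) and Trim5 (40.8%), with Trim12c (41.0%) just above it. Members that ran against the trend included Trim59, at a log2 ratio of -0.23, Trim47, at 64.1% GC and 0.76, and Trim16, at 49.1% and 1.08. So did Trim36, at 43.6% and -0.19, and 3 members of the cluster, Trim30b (41.9%, -0.25), Trim30c (43.8%, -0.28) and Trim34a (44.3%, -0.33). The decile of Trim30b had a median of 0.36, and that of Trim30c, Trim34a and Trim36 had 0.17. Trim26 (51.0%) and Trim14 (51.7%) lay in the range of negative medians. With that trend, and a trend in length, taken out by a fit, 8 of the 15 calls held. In all 12 of 38 members were then called, against 30.2% of all genes. Trim30d then stood at 0.04, Trim12a at 0.05, Trim12c at 0.54, Trim14 at -0.52, Trim3 at -0.44, Trim8 at -0.47 and Trim65 at -0.48, all within 1.5-fold. Trim5 stood at 0.69, Trim21 at -0.67 and Trim26 at -0.73, while Trim59, at -0.91, Trim30c, at -0.63, and Trim30b, at -0.60, passed 1.5-fold towards replicate 2 and Trim17, at 0.70, towards replicate 1. Trim13 changed sign, at 0.12 before and -0.40 after, and Trim30a did so at 0.25 and -0.20. Scaling by total counts alone moved the median of all genes to 0.19, against 0.01 under TMM, and split the calls 11 and 1, so the number of members called higher in replicate 2 depended on the scaling. Of all 12226 genes it called 3304 as higher in replicate 1 and 1283 as higher in replicate 2, so the calls of all genes leaned the same way.

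**Figure D4:**
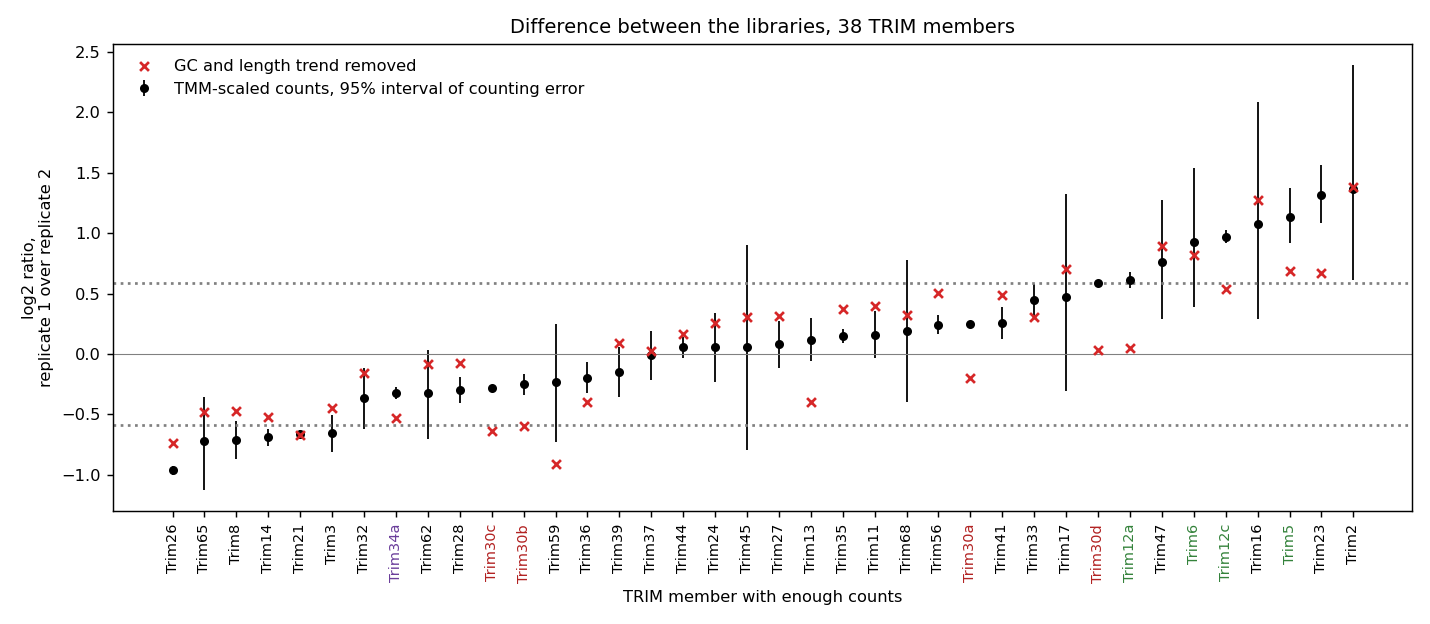
Log2 ratio, replicate 1 over replicate 2, of the 38 TRIM members with enough counts, ordered by ratio; black points are TMM-scaled counts with 95% intervals of counting error, red crosses have the trend in GC content and length taken out, and dotted lines mark 1.5-fold. Trim30d and Trim12a, on the upper dotted line as measured, fall to 0.04 and 0.05 once the trend is removed.

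Markers of other cells also moved between the libraries. All 8 macrophage markers reached 1 TPM in both, with summed levels of 15672.5 TPM in replicate 1 and 21714.3 in replicate 2. Lyz2 alone gave 10495 and 13567 TPM of these sums, and the median of the 8 was 614 and 572 TPM. Cd68, Lyz2, Csf1r, Itgam and Cd14 were higher in replicate 2, while Adgre1, Mertk and Fcgr1 were lower there. The 7 neutrophil markers summed to 455 and 16.4 TPM, with 2 at 1 TPM in both libraries, S100a9 at 316 and 10.2 TPM and S100a8 at 127 and 5.63 TPM, and with Ly6g at 0 counts. Their part in the TRIM ratios was not tested. In bulk RNA fewer cells of a type and less RNA per cell cannot be told apart. No B cell, dendritic cell, erythroid or fibroblast marker reached 1 TPM in both libraries, and of the T cell markers Cd4 did (44.8 and 79.9 TPM), with Cd3d, Cd3e and Cd3g at no more than 1 count.

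For some TRIM genes a large part of the TPM lay on transcripts that are not annotated as coding. Of the 29 members at 1 TPM 28 have 2 or more annotated transcripts, and 22 of these 28 (78.6%) had the same leading transcript in both libraries, against 82.8% of the 8675 protein-coding genes at that level with 2 or more transcripts. In 6 members (21.4%) the leading transcript of at least 1 library was noncoding or subject to nonsense-mediated decay, against 11.4% of those genes. Trim26 and Trim28 were under 50% coding in both libraries, 2 of the 28 (7.14%, against 5.22% of those genes). In the second quantification both were above 50% in replicate 1, at 61.1% for Trim26 and 52.8% for Trim28, and the 2 members under it in both libraries were Trim30b and Trim3 (7.14%, against 6.4%). For Trim26 the processed transcript Trim26-209 took 43.1% of the gene's TPM in replicate 1 and 58.8% in replicate 2, and coding transcripts 49.9% and 37.9%. For Trim14 the lead was the coding Trim14-201 in replicate 1 (52.0%) and the processed transcript Trim14-204 in replicate 2 (59.3%). Trim28 showed the same change of lead, with Trim28-201 at 41.1% in replicate 1 and the processed transcript Trim28-210 at 39.96% in replicate 2, and coding shares of 41.1% and 22.8%.

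The retained-intron transcript Trim30b-202 led in both libraries, at 33.8% in replicate 1 and 44.2% in replicate 2. Trim3 was led by the coding Trim3-202 (44.2%) in replicate 1 and by the processed transcript Trim3-204 (43.4%) in replicate 2. Trim33 was led by the coding Trim33-202 (41.2%) in replicate 1 and in replicate 2 by Trim33-206 (48.1%), which is annotated as a target of nonsense-mediated decay. Trim21 kept its coding lead, Trim21-201, at 83.5% and 52.5%, but its coding share was 92.2% in replicate 1 and 59.0% in replicate 2. The second quantification gave its lead in replicate 2 to the retained-intron Trim21-204 at 48.7%, with a coding share of 46.2%. Coding leads also changed for Trim56, with Trim56-201 at 73.4% in replicate 1 and Trim56-202 at 56.3% in replicate 2, and for Trim36, with Trim36-201 at 80.0% and Trim36-202 at 55.3%. TPM scales to length, so short transcripts weigh less in counts. In replicate 2 Trim28-210 had 465 counts against 1318 for Trim28-201, and Trim14-204 had 1951 against 3374 for Trim14-201. Trim3-204 had 159 against 888 for Trim3-201, Trim33-206 had 214 against 524 for Trim33-202, and Trim56-202 had 247 against 2796 for Trim56-201. Trim26-209, at 10273 counts, and Trim30b-202, at 1363, led on counts as well. Trim30a was at 99.0% coding or more in both libraries. Trim30c, Trim30d, Trim34a and Trim12c have only coding transcripts in the annotation, so their full coding share was fixed by it. The coding share was higher in replicate 1 by over 1 percentage point in 7 of the 28 members (25%, against 28.6% of protein-coding genes) and higher in replicate 2 in 5 (17.9%, against 31.9%). The 7 were Trim21, Trim26, Trim14, Trim28, Trim30b, Trim3 and Trim33, and the 5 were Trim12a, Trim39, Trim24, Trim27 and Trim62. In the second quantification these numbers were 7 (25%, against 36.5%) and 10 (35.7%, against 31.5%), and Trim30b turned, with 38.7% in replicate 1 and 41.5% in replicate 2. That quantification named the same lead as the first for 27 of the 28 members in replicate 1 and for 25 in replicate 2, but only 18 had the same lead in both libraries there (64.3%, against 77.3% of protein-coding genes), and 7 had a noncoding lead in either (25%, against 14.6%).

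**Figure D5:**
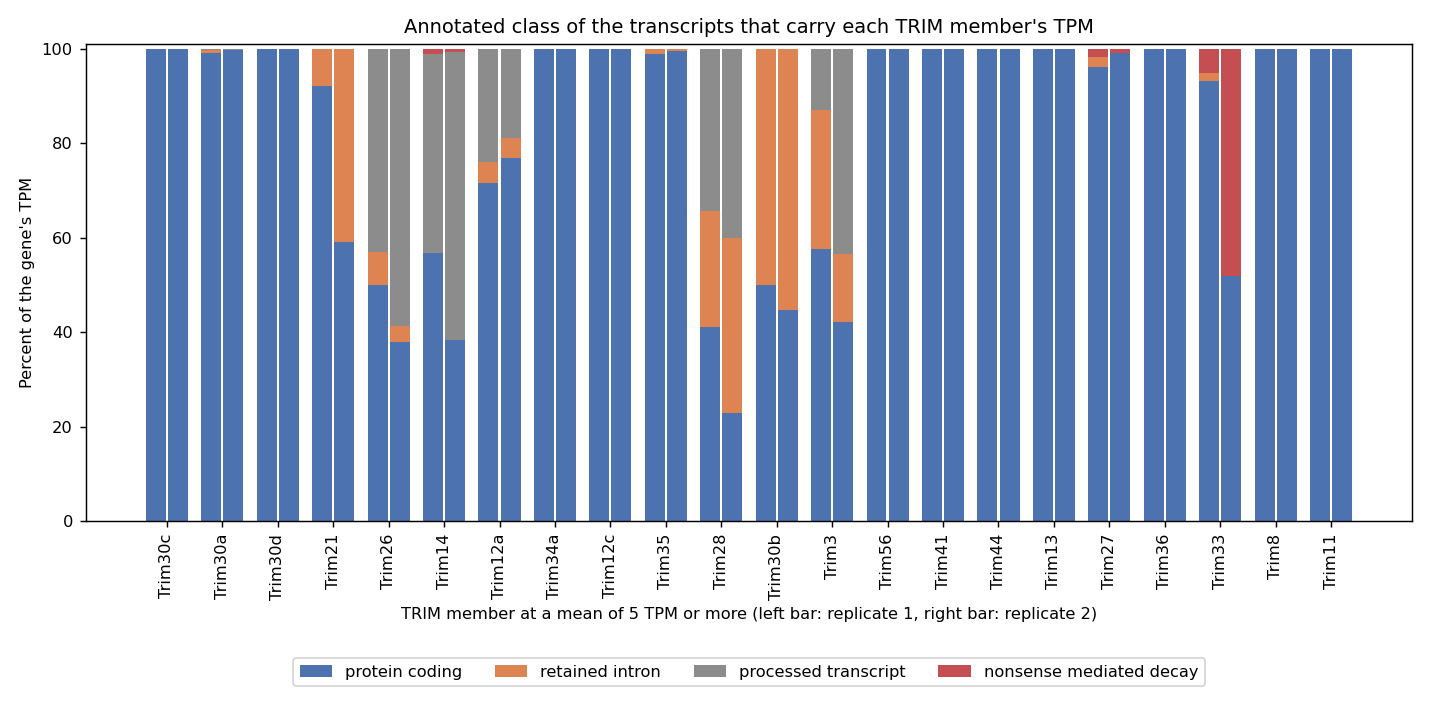
Percent of each gene's TPM by annotated transcript class (coding in blue, retained intron in orange, processed transcript in grey, nonsense-mediated decay in red) for the 22 TRIM members at a mean of 5 TPM or more and at 1 TPM in both libraries, with replicate 1 as the left bar and replicate 2 as the right bar. Coding shares of Trim28 are 41.1% and 22.8% and those of Trim26 49.9% and 37.9%, while Trim30c and Trim30d have only coding transcripts in the annotation.

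The listed partners of the family were all detected, but the lists were chosen with earlier results of these data known. Of 11 genes of the ubiquitin-conjugating enzyme family that work with TRIM ligases all reached 1 TPM in both libraries and 6 were at 100 TPM or more. Over all protein-coding genes the shares at these levels were 42.4% and 5.08%. Ube2d3 had 585 TPM in replicate 1 and 1425 in replicate 2, Ube2l6, which also carries the ubiquitin-like ISG15, had 206 and 385 TPM, and Ube2e1 had 210 and 242 TPM. The lowest was Ube2e2 at 5.59 and 10.1 TPM. Of 11 signalling proteins known as TRIM substrates or partners all reached 1 TPM too, 4 of them at 100 TPM or more. The interferon regulatory factor Irf7 led at 1169 and 1172 TPM, followed by Tab2, the substrate of Trim30a, at 142 and 291 TPM and the kinase Ripk2 at 144 and 121 TPM, while Tab3 was lowest at 4.40 and 2.13 TPM. Of 6 relatives outside the naming rule 3 reached 1 TPM. They were Pml, the organiser of nuclear bodies, at 127 TPM in replicate 1 and 201 in replicate 2, the microtubule-associated ligase Mid1 at 93.0 and 210 TPM, and Mefv, which encodes pyrin, at 37.0 and 20.5 TPM. Triml1 and Triml2 had 0 counts in both libraries.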

How the data were processed

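Members were found by symbol in the deposited tables, and 1 gene that the symbol pattern takes and 1 promoter motif are not reported here. The members and lists were chosen with earlier results of these data known. The authors deposited, per the file headers and accompanying notes, mm10 and GENCODE M21 tables of expected counts (estimated, not normalized), TPM and FPKM per gene, transcript tables with a percent of gene TPM, and a second transcript table of the kallisto layout. Which aligner and quantifiers were run, and in which versions, is not given in the sources used here. TPM depends on the length given to each transcript, so ratios between libraries used counts.

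Expected counts were rounded, filtered by filterByExpr (12226 genes) and scaled by TMM in edgeR 4.0.16 (R 4.3.3), with a prior count of 2, exact Clopper-Pearson 95% intervals and DESeq2 1.42.0 size factors as an alternative. The ratio script was tested on simulated data. Detection meant 1 TPM in both libraries. The ISRE core was searched on both strands of RefSeq GRCm38.p6 promoters, and coding sequences of GENCODE M21 were aligned with Biopython 1.88. Protein sequences were not used here. Named members were all genes of the chromosome 7 cluster, all at a mean of 5 TPM or more, those 1.5-fold apart and those whose leading transcript was noncoding or changed. Windows, upstream sequences, the split at 20 TPM and the bound of 1 percentage point on coding shares were chosen after values were seen.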

Additional observations from a re-analysis of the deposited data

How the results depend on the processing

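The count of members at 1 TPM, 29, lay between 22 (5 TPM) and 34 (0.5 TPM) over the alternatives run, and was 30 in either library alone. The median of 0.62 TPM was 0.884 in the second quantification, 0.748 when TPM was rescaled to nuclear genes that code for protein, 0.405 as FPKM and 13.2 over members at 1 TPM, and 0.54 to 0.70 with 1 replicate left out. The difference of Trim30 and Trim34 genes over other members, 6.75, was 6.28 as FPKM, 8.26 with a pseudocount of 0.1, 4.39 over members at 1 TPM and 5.76 with Trim12, Trim5 and Trim6 genes added, and 6.60 to 6.91 with 1 replicate left out. Their share of TRIM TPM, 61.6%, was 68.9% with those genes added and 57.0% to 66.1% with 1 replicate left out. Of the 15 members 1.5-fold apart, 4 were 2-fold apart, all higher in replicate 1. These were 4 of the 38 members compared, against 13.2% of all 12226 genes, with 971 genes higher in replicate 1 and 642 in replicate 2. The alternatives at 1.5-fold gave 12 to 19 members, with 34 to 52 compared, against 29.2% to 46.1% of all genes compared. The calls of Trim14, Trim21, Trim3, Trim65 and Trim8 were lost under total count scaling, those of Trim16, Trim2, Trim6, Trim65 and Trim8 on the TPM scale, where Trim2 reversed to -0.20, that of Trim30d with DESeq2 size factors, those of Trim12a and Trim30d with all genes that had a count, and that of Trim6 in the second quantification. Requiring 100 summed counts left out Trim16 and Trim2. Removing the GC and length trend ended the calls of Trim12a, Trim12c, Trim14, Trim3, Trim30d, Trim65 and Trim8, while Trim59, Trim30c, Trim30b and Trim17 passed 1.5-fold. The cause was not tested. Members with the same leading transcript in both libraries numbered 22, and 18 in the second quantification. No paired analysis was possible because the series has 1 group. Depth limits members with few counts, such as Trim34b and Trim2.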
